A study of Mus musculus with 2 samples.

Results

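The transcription factors that set the fate of T cells were followed in lymphocytes from mouse liver tumours: Tcf7, Lef1, Bach2 and Id3 as factors of stem-like, naive and memory cells, and Id2, Tbx21, Eomes, Prdm1, Bhlhe40 and Tox as factors of effector, terminal or exhausted cells. These 10 genes were taken by name from the 32285 genes of the matrices, and all 10 were present in both. Live leukocytes (CD45+, DAPI used to mark dead cells) had been sorted from dissociated hepatocellular carcinomas of MYC-ON mice after gavage with an agent labelled STK or with DMSO. Each group is 1 droplet library of the 10x Genomics 5′ chemistry, both carry the same batch label, and MYC-ON is a feature of both. The labels used here do not say what STK is, which promoter drives MYC, or how many animals of which age and sex went into each library. They call the cells liver cells, whereas the sort was for leukocytes, and the T and NK cells were found here by marker RNA.

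T cells carry a shared set of factors whose balance accompanies the step from quiescence to effector function. TCF1 (the product of Tcf7) and LEF1 are related HMG-box proteins that maintain naive, memory and stem-like T cells, BACH2 is a repressor that restrains effector genes, and ID3 is kept in memory precursors. ID2 and ID3 have no DNA-binding region of their own and hold E proteins away from their E-box sites. The T-box factors T-bet (Tbx21) and EOMES drive cytotoxic genes in CD8 T and NK cells, BLIMP1 (Prdm1) is a repressor that drives terminal differentiation, BHLHE40 supports cytokine production and residence in tissue, and TOX is needed for the exhausted state of CD8 T cells in tumours.

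The STK library held 11672 barcodes and 81859811 unique molecular identifiers (UMIs, each standing for 1 captured RNA molecule), and the DMSO library 11784 barcodes and 79322966 UMIs. After the filters on depth, genes and mitochondrial RNA, 10846 STK and 11152 DMSO cells remained, with medians of 4930 and 4472 UMIs per cell, and 183 of their barcodes occur in both libraries (1.69% of STK and 1.64% of DMSO cells). Marker RNA gated 3455 STK and 2717 DMSO cells as T or NK cells, and no member gene was used in a gate. The CD8 cells (Cd8a or Cd8b1 RNA without Cd4 RNA) were split in order into cycling, Havcr2, Gzmk, naive-like (RNA of naive cell surface markers, Ccr7 among them) and other cells, of which the STK library held 291, 92, 569, 463 and 221, and the DMSO library 228, 79, 294, 418 and 148. The further gates were conventional CD4 cells (361 STK, 366 DMSO), Foxp3 regulatory T cells (Tregs; 234, 294), T cells with NK receptor RNA and neither CD4 nor CD8 (299, 193), Ly49 NK cells (664, 532) and Cd160 or Xcl1 innate-like lymphocytes without Ly49 RNA (190, 137). A gate of gamma-delta or IL-17 cells held 71 STK and 28 DMSO cells and is given for levels only.

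The gates held their fixed check markers with some exceptions. Il2ra, Ctla4, Ikzf2 and Tnfrsf4 were above the other T and NK gates in the Foxp3 gate of both libraries, and Pdcd1, Lag3, Tigit and Entpd1 were above the others in the Havcr2 gate. In innate-like cells against Ly49 NK cells, Cxcr6 was at 105 against 3.39 CPM (the counts-per-million scale, relative to all UMIs of a gate) in the STK library and 126 against 6.71 in the DMSO library, while Itga1 was 19.9 against 21.9 CPM in the STK library and 20.5 against 7.11 in the DMSO library. Set against all other T and NK gates, innate-like cells were lower in Cxcr6 (105 against 148.5 CPM in STK and 126 against 133 in DMSO cells). Il7r was also lower in both libraries (125 against 204 and 94.4 against 192 CPM). Tnfsf10 was higher in both, and Itga1 in the DMSO library alone. The NK-receptor T gate had Cd3e at 340 CPM in the STK library and 377 in the DMSO library, under the 755 or more of the CD8 gates, and Ncr1 at 619 and 694 CPM, so NK cells with stray CD3 RNA and T cells cannot be told apart there. RNA of other lineages was present in the T and NK gates at different levels. The 2 monocyte markers, Lyz2 and Ccr2, of which Ccr2 is also known in some T and NK cells, summed to 60.6 to 260 CPM in STK gates and 44.9 to 319 in DMSO gates, highest in Ly49 NK cells of both. The 4 B and plasma cell markers summed to 2.86 to 20.3 CPM in STK gates and 1.23 to 19.3 in DMSO gates, and the 4 hepatocyte markers to 103 to 289 CPM in STK gates and 127 to 372 in DMSO gates.

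The libraries differed in ways that reach every T cell gate. Among cells with Xist or Y-linked RNA, female cells made up 56.5% to 81.3% of the STK gates and 2.35% to 21.9% of the DMSO gates. Cells with a UMI of Hspa1a or Hspa1b, inducible heat shock genes, made up 1.58% to 6.05% of the STK gates and 27.5% to 42.1% of the DMSO gates. Differences between the libraries are therefore given again within female cells, within male cells or without heat shock cells where the counts allow. Neither group has a second library, so none of these differences can be set against a spread between replicates. All intervals are 95% intervals that cover counting error alone.

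Among the stem-like factors, Tcf7 RNA was highest in naive-like CD8 cells of both libraries, at 289 CPM in the STK library and 332 in the DMSO library. It was lowest in Tregs, at 23.4 CPM in the STK library and 17.6 in the DMSO library, with Havcr2 CD8 cells next at 27.4 and 25.8. The span between the highest and lowest gate was therefore 12.3-fold in STK and 18.8-fold in DMSO cells, and 8 of the 10 neighbouring steps in the order of 11 gates had overlapping intervals in each library. After each cell was thinned to 1000 UMIs, 25.4% of STK and 28.8% of DMSO naive-like CD8 cells had a Tcf7 UMI (66.1% and 73.4% before thinning). The same share was 2.56% and 1.37% in Tregs, against 0.923% and 0.443% in hepatocyte-gated cells, which should lack the gene. That gate admits no cell with a UMI of CD3, Trac or the NK receptor genes, so its share can understate free T cell RNA. Before thinning the hepatocyte-gated shares were 10.8% and 10.2%, at medians of 28727.5 and 28508.5 UMIs per cell against 4307 and 4418 in naive-like CD8 cells.

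Lef1, the close relative of Tcf7, was at 200.0 CPM in STK and 208 in DMSO naive-like CD8 cells and came next in conventional CD4 cells, at 71.5 and 88.5 CPM. Its lowest gates were Havcr2 CD8 cells in the STK library, at 19.1 CPM, and innate-like cells in the DMSO library, at 31.5 CPM. The 2 genes parted in Tregs, where Lef1 kept a middle level of 46.1 CPM in STK and 41.8 in DMSO cells while Tcf7 was at its lowest.

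The order of Bach2 was weakly resolved, since all 10 neighbouring steps overlapped in each library. It stood at 45.3 CPM in STK and 34.2 in DMSO naive-like CD8 cells and at 35.2 CPM in Ly49 NK cells of both libraries. Its lowest gates were Tregs in the STK library, at 9.37 CPM, and Havcr2 CD8 cells in the DMSO library, at 3.22 CPM from 1 UMI.

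Id3 was sparse in these cells. Naive-like CD8 cells led with 25.8 CPM in the STK and 57.1 in the DMSO library, and only these, cycling and other CD8 cells of the 10 compared gates passed 20 CPM in either library. In Tregs the thinned share of cells with an Id3 UMI was 0.427% in the STK and 0.342% in the DMSO library. Both lay under the 0.615% and 0.443% of hepatocyte-gated cells. By level Id3 was 3.12 CPM in STK Tregs against 6.15 in STK hepatocyte-gated cells. In the DMSO library it was 15.0 against 2.56 CPM, with 12 of the 23 Treg UMIs in 1 cell. Id3 in Tregs was thus above hepatocyte-gated cells by level in the DMSO library alone, and not by share.

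**Figure D1:**
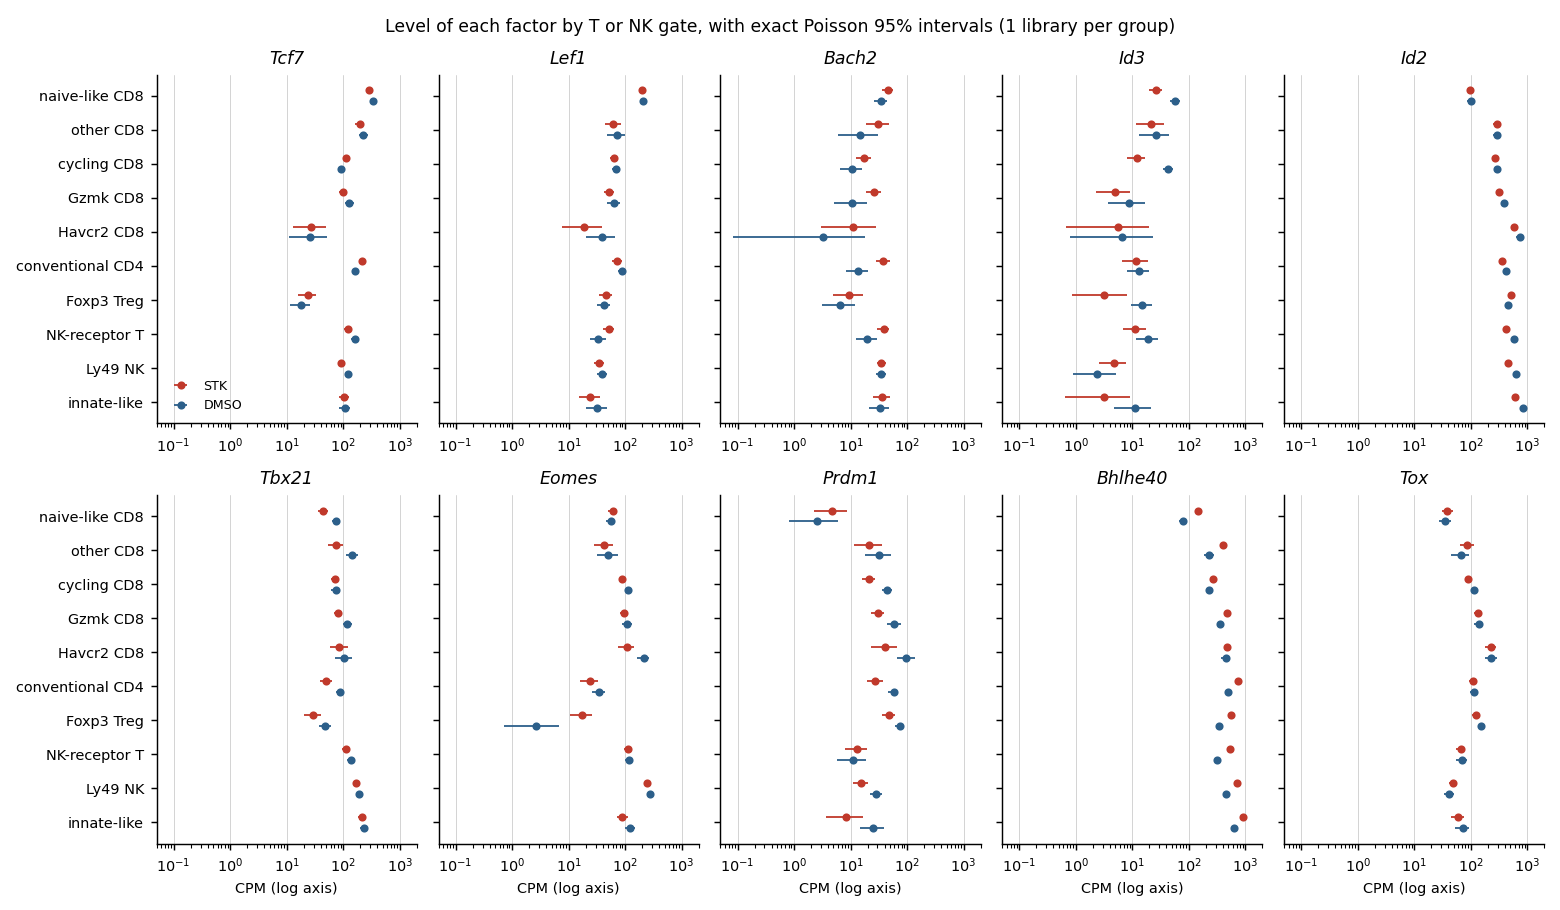
Level of each factor (CPM on a log axis) in the 10 T and NK gates compared, STK in red above DMSO in blue, with exact Poisson 95% intervals. Tcf7 and Lef1 peak in naive-like CD8 cells, Id2 and Bhlhe40 are lowest there, and Eomes peaks in Ly49 NK cells.

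Among the effector factors, Id2 ran opposite to Lef1. It was lowest in naive-like CD8 cells, at 98.3 CPM in the STK and 99.9 in the DMSO library, and highest in innate-like cells, at 592 and 832 CPM, with Havcr2 CD8 cells second at 583 and 728. Of innate-like cells, 44.2% in the STK and 59.1% in the DMSO library had an Id2 UMI after thinning, against 7.16% and 6.72% of naive-like CD8 cells. The naive-like shares were close to the 5.23% and 6.53% of hepatocyte-gated cells, which had 72.4 and 61.2 CPM of Id2, and above the 1.99% and 1.44% of B and plasma cells, which had no more than 20.4 CPM in either library.

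The T-box genes had different orders over the gates. Tbx21 was highest in innate-like cells, at 213 CPM in the STK and 230 in the DMSO library, followed by Ly49 NK cells at 171 and 195, and was lowest in Tregs at 28.9 and 47.7. Eomes was highest in Ly49 NK cells, at 242 CPM in STK and 272 in DMSO cells, and only 90.0 and 125 CPM in innate-like cells. Among CD8 gates the highest Eomes was in Havcr2 cells, at 107 CPM in the STK and 213 in the DMSO library, above the innate-like cells of both.

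Prdm1, Bhlhe40 and Tox shared naive-like CD8 cells as their lowest gate in both libraries. Prdm1 was highest in Tregs of the STK library, at 47.6 CPM, and in Havcr2 CD8 cells of the DMSO library, at 96.7 CPM, and was lowest in naive-like CD8 cells, at 4.77 and 2.55 CPM. Bhlhe40 was highest in innate-like cells, at 905 CPM in the STK and 624 in the DMSO library, and lowest in naive-like CD8 cells, at 147 and 78.0 CPM. The top of the Tox order was Havcr2 CD8 cells, at 224 and 226 CPM, and its bottom again naive-like CD8 cells, at 38.2 and 34.7 CPM.

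The clearest contrast was between Havcr2 CD8 cells, which carry the RNA of the exhaustion receptor TIM-3, and naive-like CD8 cells. A gene was called between gates when it was past 2-fold in the same direction in both libraries, with at least 20 UMIs over both gates in each. Of the 10 factors, all counted, the 4 stem-like ones were all lower in Havcr2 cells and 4 of the 6 effector ones were higher, whereas over all 7306 genes counted 3.3% were lower and 5.04% higher. Tcf7 was 27.4 CPM in Havcr2 against 289 in naive-like cells of the STK library (10.6 times lower) and 25.8 against 332 in the DMSO library (12.9 times lower). Lef1 was 10.5 times lower in the STK and 5.38 times lower in the DMSO library, from 7 and 12 UMIs in Havcr2 cells. For Bach2 the ratio was 0.241 (interval 0.0644 to 0.638) in the STK and 0.0944 (0.00235 to 0.544) in the DMSO library, from 4 and 1 UMIs in Havcr2 cells. For Id3 it was 0.212 (0.0251 to 0.805) and 0.113 (0.0135 to 0.417), from 2 UMIs in each. Both genes were thus lower beyond counting error, by an amount that these counts leave wide.

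On the effector side Id2, an E protein inhibitor, was 583 CPM in Havcr2 against 98.3 in naive-like cells of the STK library, a ratio of 5.93 (interval 4.87 to 7.21), and 728 against 99.9 in the DMSO library, a ratio of 7.29 (5.99 to 8.87). Tox was 224 against 38.2 CPM in the STK library (ratio 5.87) and 226 against 34.7 in the DMSO library (ratio 6.51). Both genes therefore had close ratios in the 2 libraries, with overlapping intervals. Bhlhe40 had ratios of 3.27 in STK and 5.70 in DMSO cells, whose intervals (2.70 to 3.95 and 4.50 to 7.22) did not overlap. Prdm1 had ratios of 8.60 (3.61 to 21.4) and 37.9 (14.6 to 125), from 10 STK and 5 DMSO UMIs in naive-like cells. The T-box genes were not called: Tbx21 had ratios of 1.89 and 1.37, and Eomes 1.77 and 3.79.

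Gzmk CD8 cells, which carry granzyme K RNA without Havcr2 RNA, were set against naive-like cells in the same way. In them 3 of the 4 stem-like factors were lower and the same 4 effector factors higher, where 1.38% of 8160 genes were lower and 3.69% higher. Tcf7 was 99.9 CPM in Gzmk against 289 in naive-like cells of the STK library and 128 against 332 in the DMSO library, and Tox was 132 against 38.2 and 139 against 34.7 CPM. Bach2 was the stem-like factor outside the call, 1.75 times lower in STK and 3.21 times lower in DMSO cells.

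**Figure D2:**
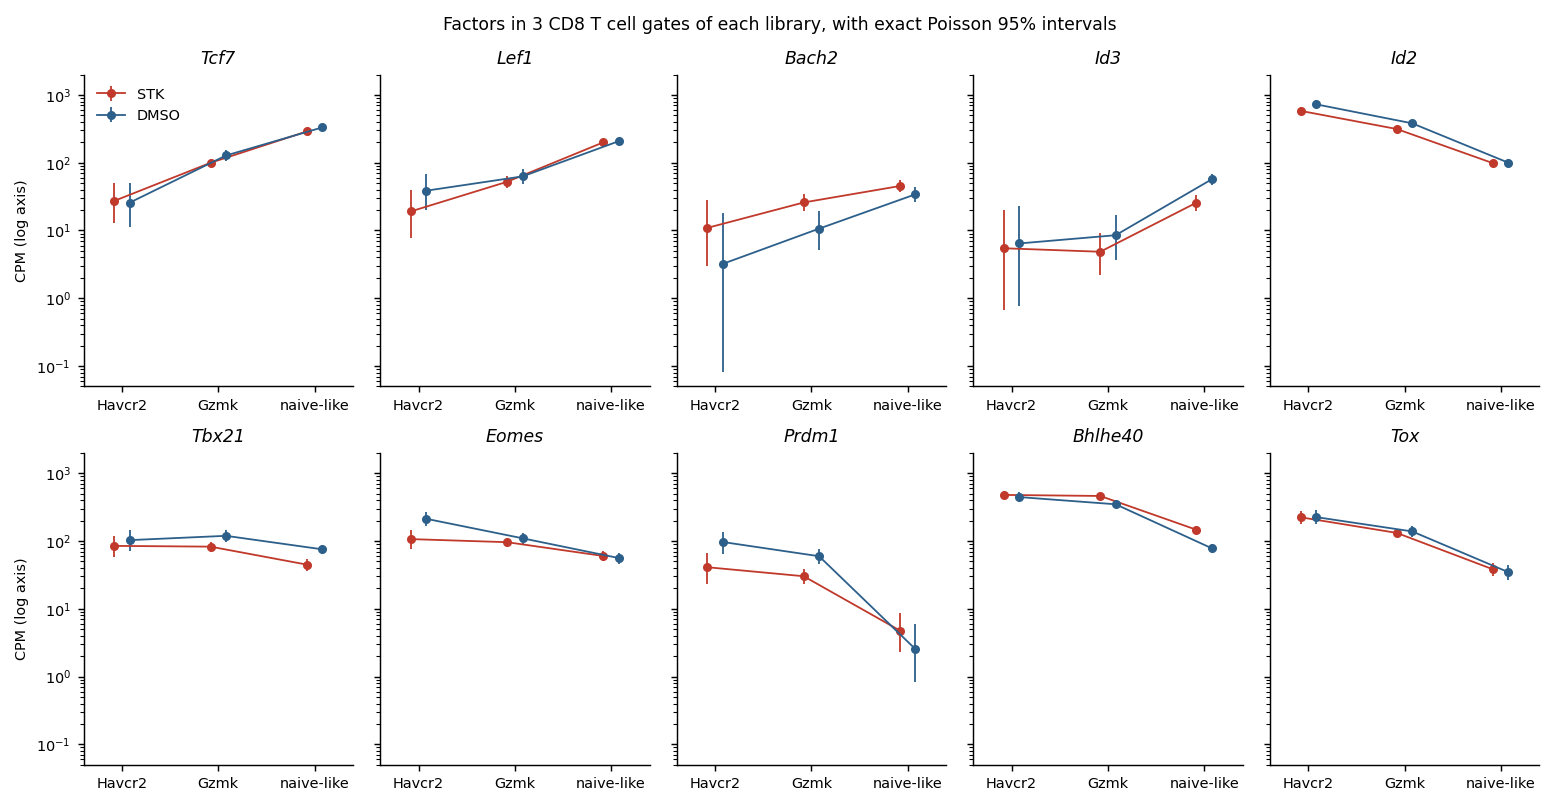
Level of each factor (CPM on a log axis) in Havcr2, Gzmk and naive-like CD8 T cells of the STK (red) and DMSO (blue) libraries, with exact Poisson 95% intervals. The 4 stem-like factors are lowest and Id2, Bhlhe40, Prdm1 and Tox highest in Havcr2 or Gzmk cells; Bhlhe40 in naive-like cells is 147 CPM in the STK and 78.0 in the DMSO library.

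Other genes of the same pathways were counted in the same Havcr2 over naive-like comparison, leaving out the gate genes themselves. Of 8 other quiescence and memory factors, 7 were counted and 3 were lower: Satb1, a chromatin organiser of naive T cells, Klf2, which drives exit receptors, and its relative Klf3. Satb1 was 21.9 against 333 CPM in the STK library and 25.8 against 284 in the DMSO library. Of 17 other effector and exhaustion factors, 14 were counted and 8 were higher, among them Maf (60.2 against 2.39 CPM in the STK and 64.4 against 3.06 in the DMSO library) and Zeb2, a partner of T-bet in effector cells (46.5 against 4.30 and 58.0 against 5.10 CPM). The counted checkpoint genes were higher in all 7 cases, with Pdcd1 at 954 against 37.2 CPM in the STK library and 757 against 19.9 in the DMSO library. Of the 7, Pdcd1, Lag3, Tigit and Entpd1 are also the check markers of the Havcr2 gate given above. Ctla4, Cd38 and Tnfrsf9 were not used in that check. Of the E proteins, the binding partners of ID2 and ID3, 2 were counted and neither was past 2-fold in both libraries. Tcf3 was 52.0 against 42.0 CPM in STK and 64.4 against 66.3 in DMSO cells, and Tcf12 was 43.8 against 59.2 and 22.6 against 56.1 CPM, past 2-fold lower in the DMSO library alone.

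The members lie apart from one another in the genome, on GRCm38 with GENCODE vM21. Tcf7 is at chr11:52252371-52283014 on the minus strand and Tbx21 at chr11:97098071-97115331 on the minus strand. Lef1 is at chr3:131110471-131224356 (plus), Id2 at chr12:25093799-25097140 (minus), Eomes at chr9:118478212-118486132 (plus), Prdm1 at chr10:44437177-44528501 (minus) and Bhlhe40 at chr6:108660629-108666925 (plus). Chromosome 4 holds Tox at chr4:6686353-6991557 (minus), Bach2 at chr4:32238804-32586108 (plus) and Id3 at chr4:136143497-136145755 (plus), far from each other.

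Promoter windows, 250 bases before to 50 bases after the annotated start, were available for 8 of the 10 members from RefSeq (GRCm38.p6), with Tox and Bhlhe40 without an entry. Windows of 4 members are shown because Id2 and Lef1 ran opposite to each other over the gates, Tbx21 and Bach2 moved between the libraries, and 3 of the 4 held a searched motif, printed in capitals (the E-box CAGCTG, or TCAAAG, the reverse strand of the TCF and LEF core CTTTGA). The windows are chr12:25096043-25096342 (minus) for Id2, chr11:97115282-97115581 (minus) for Tbx21, chr4:32417185-32417484 (plus) for Bach2 and chr3:131110047-131110346 (plus) for Lef1, each written from 5′ to 3′ on the gene's strand. The RefSeq start used for Id2 and Bach2 lies inside the gene span given above, so other starts of these genes are not covered.
Id2: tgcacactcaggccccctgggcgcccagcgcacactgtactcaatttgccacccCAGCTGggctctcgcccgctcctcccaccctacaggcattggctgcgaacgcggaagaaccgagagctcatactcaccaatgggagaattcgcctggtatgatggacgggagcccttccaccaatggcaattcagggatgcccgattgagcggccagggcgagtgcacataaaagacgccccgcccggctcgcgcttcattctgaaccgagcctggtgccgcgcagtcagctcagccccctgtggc
Tbx21: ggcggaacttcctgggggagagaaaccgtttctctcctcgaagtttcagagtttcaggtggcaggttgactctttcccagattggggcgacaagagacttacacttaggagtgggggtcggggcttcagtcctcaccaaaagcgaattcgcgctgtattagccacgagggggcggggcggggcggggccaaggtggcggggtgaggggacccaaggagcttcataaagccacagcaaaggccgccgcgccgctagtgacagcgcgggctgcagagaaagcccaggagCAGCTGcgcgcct
Bach2: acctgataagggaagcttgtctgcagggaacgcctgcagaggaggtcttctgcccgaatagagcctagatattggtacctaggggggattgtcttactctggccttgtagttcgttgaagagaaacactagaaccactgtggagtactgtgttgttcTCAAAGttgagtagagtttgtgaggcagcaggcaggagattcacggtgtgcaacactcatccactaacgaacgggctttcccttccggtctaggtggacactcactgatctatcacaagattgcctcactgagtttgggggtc
Lef1: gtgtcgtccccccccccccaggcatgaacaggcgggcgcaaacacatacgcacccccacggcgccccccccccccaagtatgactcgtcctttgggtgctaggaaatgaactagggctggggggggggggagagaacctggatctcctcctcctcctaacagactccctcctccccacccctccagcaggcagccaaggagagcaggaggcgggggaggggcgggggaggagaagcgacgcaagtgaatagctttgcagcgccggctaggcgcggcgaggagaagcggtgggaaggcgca

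The E-box CAGCTG began at base 55 of the Id2 window and base 288 of the Tbx21 window, and was also in the Tcf7 window, whose start may lie downstream of that of longer Tcf7 transcripts. It was thus in 3 of the 8 windows, with that doubt on 1, and in 16.1% of all 27025 promoter windows of the same length. The core CTTTGA was in 1 of the 8, Bach2, from base 158, and in 16.2% of all windows. The E-box CACGTG, of the kind that BHLHE40 is known to bind, the T-box element TCACACC and the RUNX element TGTGGT were in none of the 8 windows, on either strand, and in 7.24%, 3.96% and 16.9% of all windows. None of the 5 motifs overlapped another in these windows, and a match of letters is not a binding site.

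Over all CD8 gates together, the stem-like factors were more often found in the same single cells. A split of such pooled cells also holds the differences between the gates. Of 1636 STK and 1167 DMSO CD8 cells, 1459 and 1056 were deep enough to be thinned to 2000 UMIs each, and they were split by a Tcf7 UMI, which gave 371 cells with and 1088 without in the STK library, and 302 with and 754 without in the DMSO library. Lef1 RNA was found in 25.1% (interval 20.7% to 29.8%) of cells with against 13.3% (11.4% to 15.5%) of cells without Tcf7 in the STK library, and in 29.5% (24.4% to 35.0%) against 15.4% (12.9% to 18.2%) in the DMSO library. Unthinned, these shares were 42.4% against 19.4% and 50.7% against 22.0%. Id3 lay on the same side, with 5.66% against 2.57% in STK and 8.61% against 4.11% in DMSO cells, though its intervals overlapped slightly in both libraries. Bach2 was 7.55% against 5.70% in the STK library, where the intervals overlapped, and 7.29% against 2.52% in the DMSO library, where they did not.

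The effector factors lay mostly on the other side of the Tcf7 split. Id2 was found in 22.9% of cells with against 38.1% of cells without Tcf7 in the STK library, and 19.5% against 39.9% in the DMSO library. Prdm1 was the most one-sided, with 1.08% against 5.24% in STK and 1.66% against 7.03% in DMSO cells. Tox was 8.09% against 17.2% and 10.9% against 18.7%, and Bhlhe40 29.1% against 39.8% and 16.2% against 31.8%. The shares of the T-box genes were less clearly apart: Tbx21 was 10.5% against 13.2% in STK and 14.6% against 17.6% in DMSO cells, and Eomes 9.16% against 14.1% and 10.3% against 13.9%, with overlapping intervals in each case. Unthinned, Tbx21 was 23.1% against 22.6% in STK and 31.6% against 30.7% in DMSO cells, so its side of the split was not fixed. By level Eomes was 55.2 CPM in cells with against 85.7 in cells without Tcf7 in the STK library (ratio 0.645, interval 0.514 to 0.802) and 64.5 against 103 in the DMSO library (0.626, 0.495 to 0.785), lower beyond counting error in both.

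**Figure D3:**
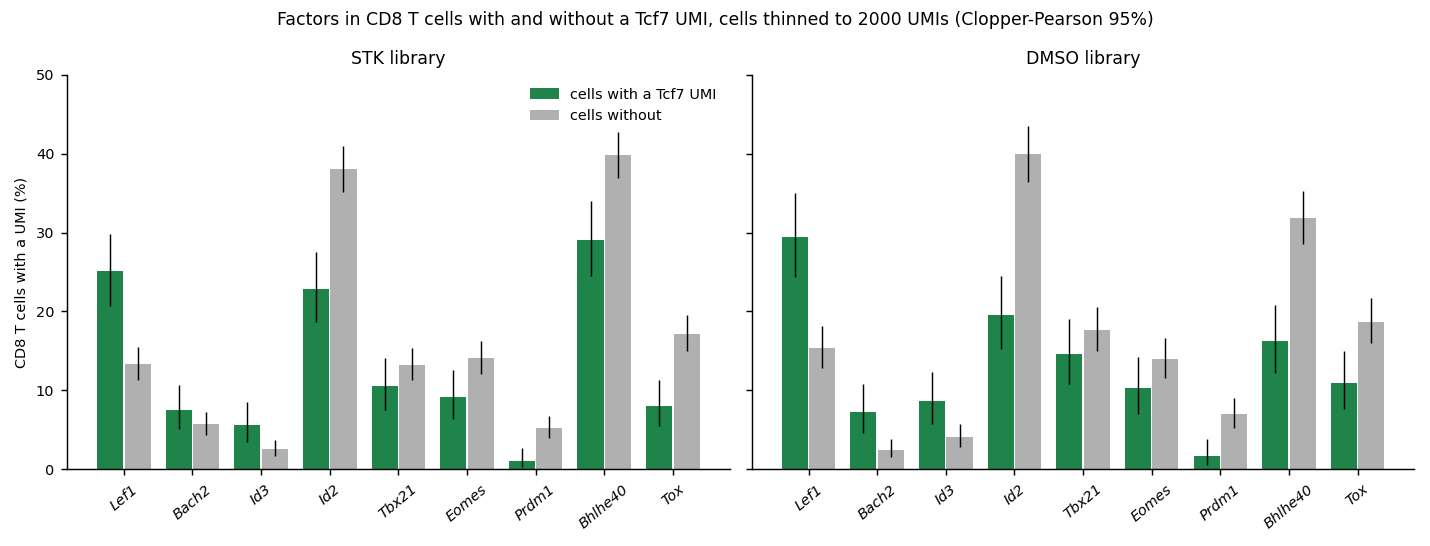
Share of CD8 T cells (percent, cells thinned to 2000 UMIs) with a UMI of each other factor, among cells with (green) and without (grey) a Tcf7 UMI, in the STK (left) and DMSO (right) libraries, with Clopper-Pearson 95% intervals. Lef1, Bach2 and Id3 are more frequent and the other 6 less frequent beside Tcf7 in both libraries.

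The same split by Tcf7 divided surface and effector genes by level. In cells with against without a Tcf7 UMI, Dapl1, a gene of naive T cells, was 96.5 against 27.7 CPM in the STK and 90.9 against 35.9 in the DMSO library, and Il7r, the receptor for the survival cytokine IL-7, was 401 against 155 and 376 against 158 CPM. Entpd1, an exhaustion marker, was 11.2 against 55.3 CPM in the STK and 11.1 against 52.0 in the DMSO library, and Tox2, the relative of Tox, 2.23 against 15.9 and 4.16 against 15.7. Median depth was similar on both sides, at 4114 against 3842 UMIs per cell in STK and 4257 against 4259 in DMSO cells. Within Gzmk CD8 cells alone, where 73 STK and 42 DMSO cells had a Tcf7 UMI, Id2 was 204 against 339 CPM and 217 against 411 CPM, and Tox 78.7 against 141 and 78.3 against 164 CPM. Of the 9 members other than Tcf7, 7 were counted there, and none was past 2-fold in both libraries. In the STK library the intervals of the Id2 and Tox ratios lay below 1, while those of the other members held 1. Lef1 was 64.4 against 50.4 CPM there (ratio 1.28, interval 0.718 to 2.16).

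The same cells were also split by Id2 in place of Tcf7. In the STK library Bhlhe40 was found in 48.7% of CD8 cells with against 31.0% of cells without Id2, and in the DMSO library in 38.3% against 21.7%. Tox was 20.6% against 11.9% in STK and 19.7% against 14.8% in DMSO cells, and the DMSO intervals overlapped. Prdm1 was 6.81% against 2.81% in STK and 7.50% against 4.45% in DMSO cells, and Tbx21 17.0% against 10.2% and 18.6% against 15.8%, again with overlapping intervals in the DMSO library. Eomes was 14.8% against 11.8% in STK and 12.8% against 12.9% in DMSO cells, with overlap in both. Of these 5 factors, only Bhlhe40 thus had intervals without overlap in each library. Overlap of separate intervals does not show that the shares were alike, and the difference between the shares was not tested.

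In the NK gates a single factor was called between Ly49 NK cells and innate-like lymphocytes. Eomes was 242 CPM in Ly49 against 90.0 in innate-like cells of the STK library (ratio 2.69, interval 2.15 to 3.40) and 272 against 125 in the DMSO library (ratio 2.18, 1.75 to 2.75). Among the 8644 genes counted, 0.949% were past 2-fold higher and 1.2% lower in both libraries. The 8 other members counted lay within 2-fold, between 1.75 times lower for Tox in the DMSO library and 1.81 times higher for Prdm1 in the STK library. Tbx21, the other T-box gene of NK cells, was 171 against 213 CPM in the STK and 195 against 230 in the DMSO library. Tcf7 was 92.3 against 104 and 121 against 107 CPM, so its order differed between the libraries while the intervals of both ratios held 1.

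In Foxp3 Tregs against conventional CD4 cells Tcf7 and Bach2 were called lower, among 8412 genes of which 1.55% were lower and 1.9% higher in both libraries. Tcf7 was 23.4 CPM in Tregs against 218 in conventional CD4 cells of the STK library and 17.6 against 165 in the DMSO library, 9.31 and 9.33 times lower. Bach2, which is known to support Treg development, was 9.37 against 37.9 CPM in the STK library and 6.53 against 13.5 in the DMSO library. These values came from 12 and 10 UMIs in Tregs. The ratio was 0.247 (interval 0.120 to 0.469) in the STK and 0.483 (0.204 to 1.06) in the DMSO library, where the interval held 1. The 8 others were not called, and Prdm1, known as a factor of effector Tregs, was 47.6 against 27.2 CPM in STK and 73.8 against 57.8 in DMSO cells.

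Between the libraries, the stem-like and the effector factors did not move as blocs. A gene was called in a gate when its CPM ratio, STK over DMSO, was past 1.5-fold with at least 20 UMIs over both libraries, and 93 of the 100 pairs of a factor and a gate could be counted. Of these, 14 were past 1.5-fold higher and 16 past 1.5-fold lower in the STK library. Bhlhe40 and Bach2 gave 11 of the 14 higher calls, and Prdm1, Tbx21 and Id3 gave 15 of the 16 lower ones, so each group held members on both sides. Tcf7, Id2 and Tox had no call in any of the 10 gates with both sexes together.

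Gate by gate, the calls of the members stood as follows beside those of all genes. In naive-like CD8 cells 1 of 9 counted members was higher (Bhlhe40) and 2 lower (Id3, Tbx21), where 8.01% of all genes were higher and 9.99% lower. In Gzmk CD8 cells 1 of 9 was higher (Bach2) and 1 lower (Prdm1), where 10.1% and 9.31% of all genes were, and in Havcr2 CD8 cells none of 6 was higher and 2 lower (Eomes, Prdm1), where 13.7% and 12.6% were. These shares are near those of all genes except for the lower calls of Havcr2 and naive-like cells, which rest on 2 genes each.

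In cycling CD8 cells Bach2 was higher and Id3 and Prdm1 lower among 10 counted members, where 6.53% of all genes were higher and 8.82% lower, and in other CD8 cells Bach2 and Bhlhe40 were higher and Tbx21 lower among 10, where 15.9% and 10.1% were. In conventional CD4 cells Bach2 and Bhlhe40 were higher and Tbx21 and Prdm1 lower among 10, where 8.78% of all genes were higher and 11.5% lower. Tregs had the most calls, with Eomes and Bhlhe40 higher and Id3, Tbx21 and Prdm1 lower among 10, where 7.43% and 10.8% of all genes were. In NK-receptor T cells Lef1, Bach2 and Bhlhe40 were higher and Id3 lower among 10, where 9.13% and 9.6% were. In Ly49 NK cells Id3 and Bhlhe40 were higher and Prdm1 lower among 10, where 5.56% and 10.7% were, and in innate-like cells none of 9 was higher and Prdm1 was lower, where 9.89% and 10.8% were.

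**Figure D4:**
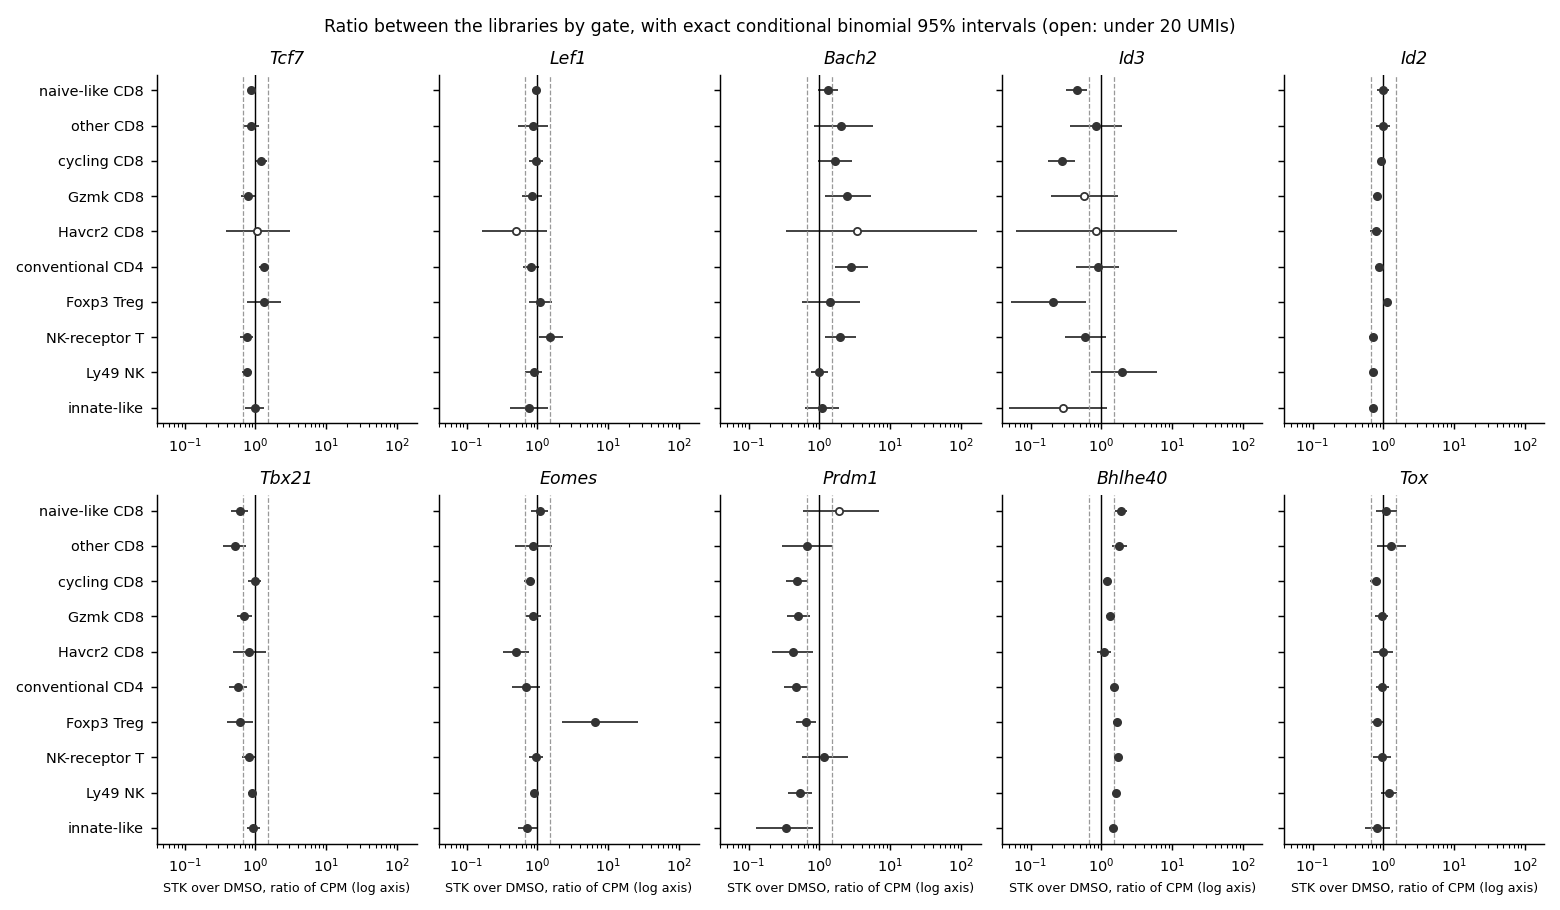
Ratio of CPM, STK over DMSO, for each factor and gate on a log axis, with exact conditional binomial 95% intervals; dashed lines mark 1.5-fold either way and open circles have under 20 UMIs. Bhlhe40 is right of 1 and Tbx21 left of 1 in all 10 gates, and no counted value of Tcf7, Id2 or Tox lies past either dashed line.

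Bhlhe40, the basic helix-loop-helix factor of activated and tissue-resident cells, stood above its DMSO level in each of the 10 STK gates. In CD8 cells it was 147 CPM in STK against 78.0 in DMSO naive-like cells (ratio 1.88, interval 1.54 to 2.30), 408 against 227 in other cells (1.80), 462 against 348 in Gzmk cells (1.33), 270 against 226 in cycling cells (1.20) and 479 against 445 in Havcr2 cells (1.08, 0.856 to 1.36). The ratio was thus largest in naive-like cells, where the gene was lowest, and smallest in Havcr2 cells, whose interval held 1.

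Outside CD8 cells it was 751 CPM in STK against 490 in DMSO conventional CD4 cells (1.54), 551 against 334 in Tregs (1.65), 537 against 310 in NK-receptor T cells (1.73), 720 against 452 in Ly49 NK cells (1.59) and 905 against 624 in innate-like cells (1.45). Of the 4400 genes counted in every gate, 6.59% were above 1 in all 10, and Bhlhe40 was 94th of the 4399 ranked by median log2 ratio, at 0.64. It was also above 1 in each of 7 gates that hold no T or NK cells, from 1.36 in hepatocyte-gated cells to 2.27 in neutrophils, and the interval held 1 in B and plasma cells (1.37, 0.772 to 2.48).

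Within the sexes the direction of Bhlhe40 held in 9 of 10 gates each. Female cells gave ratios above 1 everywhere but in Tregs (0.776), and male cells everywhere but in Havcr2 CD8 cells (0.895). The female interval lay above 1 only in naive-like CD8, Ly49 NK and NK-receptor T cells, the last from 8 DMSO UMIs. Female Havcr2 CD8 and innate-like cells held only 3 and 4 DMSO UMIs. The male interval lay above 1 in every gate but Havcr2 CD8 cells. Without heat shock cells the ratio stayed above 1 in all 10 gates, from 1.00 to 1.89, with 5 past 1.5-fold. Immediate-early genes, which follow recent stimulation and also tissue handling, were picked for this comparison after their values were seen. They moved with Bhlhe40 in part. With both sexes together Nr4a3 was past 1.5-fold higher in the STK library in 10 of 10 gates (median ratio 3.29) and Egr1 in 10 of 10 (2.29). Jun was past 1.5-fold lower in 7 of 10 (0.572) and Dusp1 in 7 of 10 (0.643). Within female cells Nr4a3 was higher in 8 of 9 counted gates and Egr1 in 4 of 6, each with 1 lower. Within male cells Nr4a3 was higher in 8 of 9 and Egr1 in 6 of 8. Egr1 in innate-like cells was 1.785 pooled, but 0.259 in female and 0.758 in male cells. Jun was lower in 7 of 9 female and 5 of 9 male gates, and Dusp1 in 7 of 10 and 4 of 10. The part of these genes, of heat shock and of sex in the level of Bhlhe40 was not tested beyond these values.

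Bach2, the repressor of effector genes, was also above 1 in all 10 gates, but 9 were counted and 5 called. It was 25.9 CPM in STK against 10.7 in DMSO Gzmk CD8 cells (ratio 2.43, interval 1.22 to 5.39), 37.9 against 13.5 in conventional CD4 cells (2.80, 1.68 to 4.84) and 38.5 against 19.4 in NK-receptor T cells (1.99, 1.22 to 3.34). Those 3 were the gates whose interval lay above 1. In Ly49 NK cells it was level, at 35.2 CPM in both libraries (1.00), and in innate-like cells 35.6 against 32.8 (1.08). Over all CD8 cells Bach2 was 28.0 against 18.6 CPM (1.51). The ratio was 0.759 within female (interval 0.430 to 1.44) and 2.26 within male cells (1.47 to 3.49). Only the male ratio was thus apart from 1 beyond counting error. Without heat shock cells Bach2 was above 1 in 7 of 9 counted gates and called higher in 6. In the STK library female CD8 cells had 26.0 CPM and male CD8 cells 32.7, while in the DMSO library female cells had 34.2 CPM from 14 UMIs and male cells 14.4 CPM from 44 UMIs.

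Tcf7 showed no call in any gate, with ratios from 0.750 in NK-receptor T cells to 1.33 in Tregs. In naive-like CD8 cells it was 289 CPM in the STK and 332 in the DMSO library (0.872, interval 0.779 to 0.975), and over all CD8 cells 161 against 188 (0.859, 0.791 to 0.933), with 0.799 within female and 0.872 within male cells. In conventional CD4 cells it stood at 218 against 165 CPM (1.32), but 0.810 within female and 1.95 within male cells. In Ly49 NK cells the pooled ratio was 0.761 (92.3 against 121 CPM), while both sexes alone gave ratios above 1, 1.37 in female and 1.28 in male cells. The pooled value also holds the cells without a sex call, and the sexes were mixed differently. Female Ly49 NK cells had less Tcf7 than male ones in both libraries. The levels were 87.8 against 143.9 CPM in STK (ratio 0.610, interval 0.434 to 0.874) and 64.3 against 112.3 in DMSO cells (0.573, 0.329 to 0.943). Of Ly49 NK cells with a sex call, 78.15% were female in the STK and 20% in the DMSO library. The part of either in the pooled ratio was not tested.

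Lef1 was near 1 in most gates, from 0.765 in innate-like cells to 1.52 in NK-receptor T cells among those counted. The NK-receptor T value, 51.3 CPM in STK against 33.7 in DMSO cells, was the only call, and was 2.71 within female cells (interval 0.462 to 109, from 1 DMSO UMI) but 0.584 within male cells (0.146 to 1.73). Over all CD8 cells Lef1 was 96.6 against 114 CPM (0.850), with 0.543 within female and 1.12 within male cells. Female CD8 cells of the STK library had 92.8 CPM and male ones 102, whereas in the DMSO library female cells had 171 and male cells 91.2 CPM.

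Id3 was below 1 in 9 of 10 gates, of which 7 were counted and 4 called lower. In naive-like CD8 cells it was 25.8 CPM in STK against 57.1 in DMSO cells (ratio 0.452, interval 0.320 to 0.630), and in cycling CD8 cells 11.9 against 43.1 (0.276, 0.177 to 0.420). In the DMSO library 18 of the 90 Id3 UMIs of cycling cells came from 1 cell. In Tregs the ratio was 0.208, and 12 of the 23 DMSO UMIs came from 1 cell. By share of cells Id3 in Tregs was not above hepatocyte-gated cells. Within female naive-like cells the ratio was 1.69 (0.515 to 8.79, from 3 DMSO UMIs) and within male ones 0.482, and in cycling cells 0.388 and 0.269. Without heat shock cells 3 of 6 counted gates were called lower and 1 higher. In Ly49 NK cells Id3 was 4.63 against 2.37 CPM (1.95), from 15 and 6 UMIs, and its interval held 1.

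Id2 was below 1 in 9 of 10 gates without a call. The 3 lowest ratios were in cells with NK receptors: 417 CPM in STK against 591 in DMSO NK-receptor T cells (0.706, interval 0.635 to 0.784), 592 against 832 in innate-like cells (0.712) and 452 against 621 in Ly49 NK cells (0.728). In naive-like, cycling and other CD8 cells the ratios were 0.984, 0.944 and 0.988, with intervals that held 1, and Tregs were the exception at 1.12 (509 against 454 CPM). Within the sexes NK-receptor T cells went apart, at 1.91 in female (interval 1.13 to 3.52, from 14 DMSO UMIs) and 0.753 in male cells, while the female and male ratios were 0.908 and 0.741 in innate-like cells, and both lay below 1 beyond counting error in Ly49 NK cells.

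Tbx21 was below 1 in all 10 gates, as were 6.25% of the 4400 genes counted in every gate. The gene was 156th of 4399 from the lowest median log2 ratio, which was -0.42. It was lowest relative to DMSO in other CD8 cells, 73.7 against 146 CPM (ratio 0.505, interval 0.342 to 0.742), conventional CD4 cells, 50.1 against 87.2 (0.574), naive-like CD8 cells, 44.9 against 75.4 (0.595), and Tregs, 28.9 against 47.7 (0.606). In the NK gates, where Tbx21 RNA was highest, the ratios were 0.880 (171 against 195 CPM) and 0.924 (213 against 230 CPM). Male cells gave ratios below 1 in 9 of 9 counted gates and female cells in 6 of 9, with 2.08 in female innate-like cells (interval 0.366 to 83.1, from 1 DMSO UMI), and without heat shock cells the ratio stayed below 1 in 10 of 10.

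Eomes was within 1.5-fold in 8 of 10 gates, with a call in each direction, and its interval lay below 1 in 4 gates. Over all CD8 cells it was 79.4 against 93.7 CPM (0.848, interval 0.754 to 0.954). There the sexes went apart, each beyond counting error. The ratio was 1.66 within female (1.08 to 2.69, from 22 DMSO UMIs) and 0.739 within male cells (0.588 to 0.924). In Ly49 NK cells it was 0.660 within female (0.517 to 0.851) and 1.16 within male cells (0.910 to 1.47). In innate-like cells the female ratio was 0.157 (from 6 DMSO UMIs) and the male one 1.10. In Havcr2 CD8 cells it was 107 CPM in STK against 213 in DMSO cells (ratio 0.502, interval 0.329 to 0.756), and 0.230 within male cells (0.0453 to 0.726, from 3 STK UMIs), the female ones being too few to count. In Tregs it was 17.2 against 2.61 CPM (6.58, 2.23 to 26.3), from 22 UMIs in 9 STK cells, 9 of them in a single cell, and 4 UMIs in 3 DMSO cells. Those 9 cells had Gzma at 2500 CPM and Gzmk at 233 CPM, against 195 and 13.3 CPM over all STK Tregs, whereas the 3 DMSO cells had 0 CPM of both, against 35.9 and 17.0 CPM over all DMSO Tregs. Of the Eomes UMIs in Tregs with a sex call, female cells held 17 in the STK and 0 in the DMSO library, and male cells 0 in the STK and 4 in the DMSO library, so the male direction was the opposite one. The Eomes ratio of STK over DMSO Tregs was 6.30 with the cells marked as doublets left out, 4.34 without heat shock cells and 2.67 by the mean over cells, which weights each cell equally.

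Prdm1 was below 1 in 8 of 10 gates, and 7 of the 9 counted were called. It was 30.2 CPM in STK against 59.6 in DMSO Gzmk CD8 cells (ratio 0.507, interval 0.344 to 0.748), 41.0 against 96.7 in Havcr2 CD8 cells (0.424), 21.1 against 44.1 in cycling CD8 cells (0.479) and 27.2 against 57.8 in conventional CD4 cells (0.471). The same direction held in Tregs, with 47.6 against 73.8 CPM (0.645), in Ly49 NK cells, with 15.1 against 28.4 (0.532), and in innate-like cells, with 8.37 against 24.6 from 8 and 18 UMIs (0.340). Within female cells 2 of 3 counted gates were below 1 and within male cells 4 of 5. The exceptions were female cycling CD8 cells at 1.01 (0.257 to 8.74, from 2 DMSO UMIs) and male Ly49 NK cells at 1.62. Without heat shock cells 7 of 9 counted gates were called lower and 1 higher (1.59, in NK-receptor T cells). Over all CD8 cells Prdm1 was 19.8 against 34.4 CPM (0.577), with 1.68 within female cells, which held 4 DMSO UMIs, and 0.559 within male cells.

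Tox was within 1.5-fold in all 10 gates, from 0.782 in cycling to 1.29 in other CD8 cells. In Havcr2 CD8 cells, where it was highest, it was 224 CPM in STK and 226 in DMSO cells (0.994, interval 0.714 to 1.39), and over all CD8 cells 91.8 against 93.3 CPM (0.984, 0.878 to 1.10). Within the sexes the values over all CD8 cells were both above 1, at 1.59 in female (1.04 to 2.55, from 23 DMSO UMIs) and 1.09 in male cells (0.890 to 1.32). Female conventional CD4 cells were at 3.02 (1.12 to 11.5, from 4 DMSO UMIs) and male Gzmk CD8 cells, with 79 STK and 51 DMSO UMIs, were also above 1 beyond counting error, whereas female innate-like cells were at 0.184 (0.0566 to 0.947, from 3 DMSO UMIs).

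**Figure D5:**
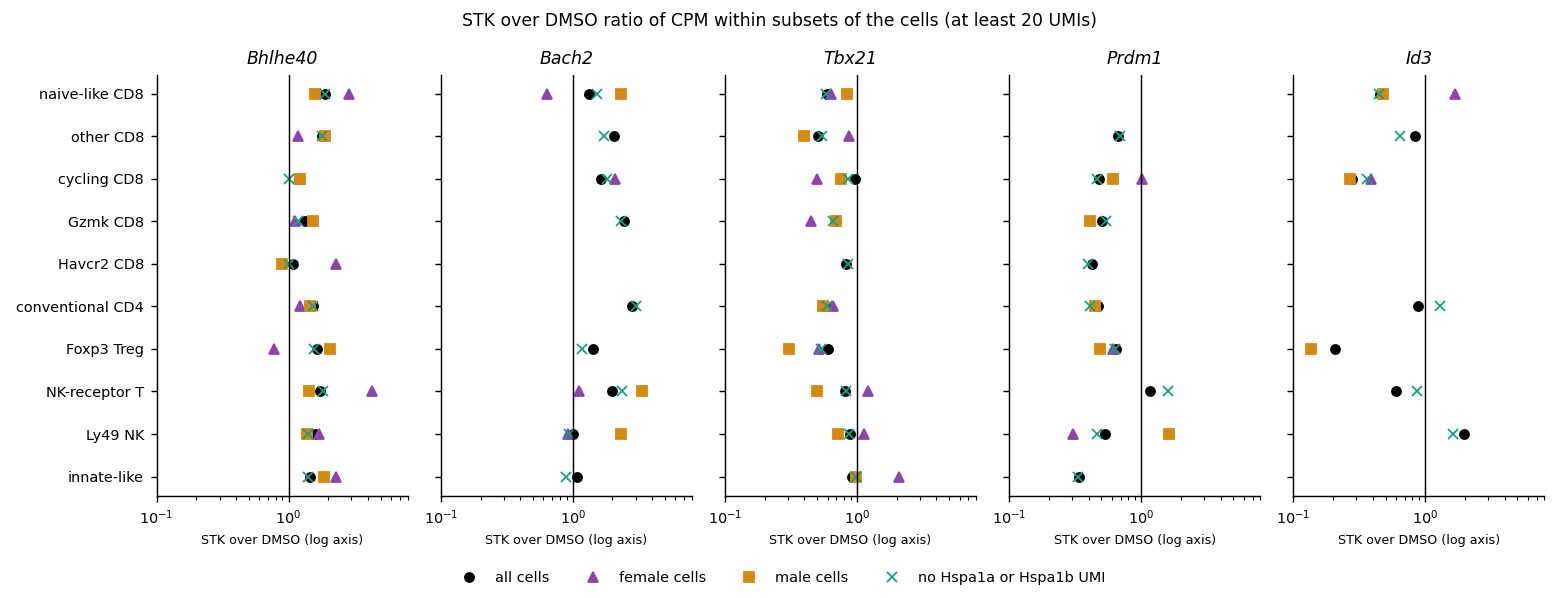
Ratio of CPM, STK over DMSO, on a log axis for 5 factors in all cells (black circles), female cells (purple triangles), male cells (orange squares) and cells without Hspa1a or Hspa1b RNA (green crosses), where at least 20 UMIs were counted. Most crosses lie near the circles, whereas the sexes fall on different sides of 1 for Bach2 and Id3 in naive-like CD8 cells.

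Genes that work beside these factors showed calls in both directions as well. Nr4a3, an orphan receptor induced by antigen receptor signals, was among 17 other effector and exhaustion factors. With both sexes together it was past 1.5-fold higher in all 10 gates, for example 86.4 CPM in STK against 25.6 in DMSO Gzmk CD8 cells. In Tregs that call was lost in each sex, with 1.65 pooled, 0.562 within female (from 10 DMSO UMIs) and 1.43 within male cells. Zeb2 was lower in Gzmk CD8 cells, 29.2 against 77.8 CPM, other CD8 cells, 36.8 against 68.6, and Ly49 NK cells, 39.5 against 62.8, but higher in conventional CD4 cells, 15.7 against 7.37, and Tregs, 16.4 against 8.49. In each gate 12 to 16 of the list were counted, of which 2 to 5 were higher and 0 to 3 lower. Of all genes, 5.56% to 15.9% were higher and 8.82% to 12.6% lower in a gate. This count and those of the lists below are for both sexes together, with heat shock cells kept.

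Among 8 other quiescence and memory factors, of which 5 to 8 were counted in a gate, 0 to 3 were higher and 0 or 1 lower. Klf2 was lower in Gzmk CD8 cells, 461 CPM in STK against 1045 in DMSO cells (ratio 0.441), and in other CD8 cells, 796 against 1389. Myb, a stem-like factor of exhausted CD8 cells, was 9.72 against 2.13 CPM in Gzmk cells (4.56, interval 1.09 to 40.5, from 2 DMSO UMIs), and Bcl6, a factor of follicular helper cells, was 27.2 against 10.4 in conventional CD4 cells (2.60). Of the naive and memory surface genes, Ccr7, the lymph node homing receptor, was 1232 against 639 CPM in naive-like CD8 cells, which it helps to gate, and 244 against 110 CPM in Tregs, which it does not.

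Checkpoint and cytotoxic genes, among them known targets of the effector factors, also had calls in both directions. Of 7 counted checkpoint genes in naive-like CD8 cells 5 were higher and 1 lower, where 8.01% and 9.99% of all genes were. Tigit was 139 CPM there in STK against 59.6 in DMSO cells. In other CD8 cells 6 of 8 were higher, where 15.9% of all genes were, with Pdcd1 at 413 against 174. In Havcr2 CD8 cells 1 of 9 checkpoint genes was higher, where 13.7% of all genes were. Gzma was 2002 against 380 CPM in those cells (5.27) and Ifng, a target of T-bet and EOMES, 46.5 against 499 CPM (0.0931), so 2 cytotoxic genes of the same gate lay far apart in opposite directions.

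Of the E proteins that ID2 and ID3 inhibit, Tcf3 was called lower in naive-like CD8 cells, 42.0 CPM in STK against 66.3 in DMSO cells, in other CD8 cells, 35.3 against 77.2, and in innate-like cells, 41.9 against 80.7. Tcf12 was higher in Havcr2 CD8 cells, 43.8 against 22.6 CPM from 16 and 7 UMIs.

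Over the 20 points given by 10 gates in 2 libraries, the genes whose level was most like each factor were ranked by Pearson correlation of log2(CPM + 10), leaving out gate genes. The points share libraries and depth, so the values are descriptions. Lef1 was most like Cmah (0.93), Dapl1 (0.87) and Actn1 (0.86), and Tox most like Entpd1 (0.95), Aopep (0.93) and Cdk6 (0.93). Id2 was closest to Serpina3g (0.94), Plscr1 (0.91) and Unc119 (0.90), and Eomes to St3gal6 (0.91), Tmem163 (0.90) and Prf1, the perforin gene (0.90). Bach2 had Socs3 (0.88), Tmem243 (0.86) and Emb (0.86), Prdm1 had Vmp1 (0.91), Txndc17 (0.89) and Gimap7 (0.89), and Bhlhe40 had Tes (0.89), Casp4 (0.88) and Spn (0.87). Tbx21 was closest to Tnfrsf1a (0.88), Efhd2 (0.86) and Zfp512 (0.85), Id3 to Rcbtb1 (0.83), Sh3bp5 (0.81) and Dapl1 (0.79), and Tcf7 to Skap1 (0.81), Commd8 (0.81) and Klf3 (0.80).

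Among the members themselves the most opposed pairs over these 20 points were Lef1 with Id2 (-0.91), Bach2 with Prdm1 (-0.83) and Id3 with Bhlhe40 (-0.81). The most alike were Prdm1 with Tox (0.83) and Id2 with Bhlhe40 (0.78). Tcf7 and Lef1, the related HMG-box genes, reached 0.65, below the value of Lef1 with Id3 (0.71), and Tcf7 with Tbx21 reached 0.18.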

How the data were processed

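The values deposited are unnormalized UMI counts for each gene in each barcode, written by Cell Ranger 6.0.2 per the file headers and placed on GRCm38 (mm10) per the submitters' processing notes. The sources used here give neither the annotation release nor the settings. Barcodes were kept from 500 UMIs and 250 genes upward where mitochondrial genes took no more than 10% of UMIs. T cells needed 2 UMIs of CD3 or Trac genes, gates needed 1 UMI of a gate gene (2 for cycling and innate-like cells), and cells with over 3 UMIs of another leukocyte lineage or over 10 of the 4 hepatocyte genes were left out of T and NK gates, which left 681 STK and 546 DMSO T cells ungated. A further marker of the naive-like gate is not reported here. Female cells had an Xist UMI and no UMI of 4 Y-linked genes, male cells the reverse. No doublets were removed in the main values. As an alternative Scrublet (scanpy 1.11.5, expected rate 8%) was run, with a score limit of 0.25 chosen after its automatic threshold had failed in the STK library, and marked 425 STK (3.92%) and 396 DMSO cells (3.55%).

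UMIs were summed per gate and library, divided by all UMIs of the gate and scaled to CPM, with exact Poisson intervals. Ratios have exact conditional binomial intervals and shares Clopper-Pearson intervals, all at 95% (scipy 1.17.1). Counting error alone is covered, and with 1 library per group no test was run. A ratio over 10 gates is not independent, since both libraries enter every gate. Sequences came from RefSeq, and positions from GENCODE vM21.

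Named genes were all 10 members, the list members furthest from equal with at least 20 UMIs, and the 3 genes most like each member with at least 50 CPM somewhere. The members, gates and lists were chosen with earlier results of these data known. Leaving out cells with heat shock RNA was added after the values had been seen.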

Additional observations from a re-analysis of the deposited data

Results flagged for a closer look

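With 1 library per group, the values here stand out because a factor was past 1.5-fold higher in some cell gates and past 1.5-fold lower in others. The difference between gates was not tested in any of these cases, and each value is a ratio of CPM, STK over DMSO. Id3, which myeloid cells also express, was higher in monocytes (1.74), macrophages (2.04), neutrophils (2.86) and hepatocyte-gated cells (2.41), and lower in naive-like CD8 cells (0.452), cycling CD8 cells (0.276) and Tregs (0.208). The hepatocyte-gated cells, set beside Tregs for Id3 above, were thus not a fixed background. Within 1 sex the Id3 ratio was 1.88 in female and 0.990 in male monocytes, and 1.12 in female macrophages (interval 0.872 to 1.47), where male ones stayed past 1.5-fold, so each call was lost in 1 sex. Tbx21 was higher in conventional dendritic cells (2.48, from 26 STK and 8 DMSO UMIs) and lower in naive-like CD8 (0.595), other CD8 (0.505) and conventional CD4 cells (0.574) and Tregs (0.606).

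Prdm1 was higher in plasmacytoid (3.62) and conventional dendritic cells (2.96), from 31 STK UMIs in each and 7 and 8 DMSO UMIs. In conventional dendritic cells the sexes went apart: male cells held 2 STK and 8 DMSO UMIs (0.390, interval 0.0403 to 1.95) and female cells 18 STK and 0 DMSO UMIs. In plasmacytoid dendritic cells the ratio was 1.34 in female cells (0.308 to 12.2, from 2 DMSO UMIs) and 6.25 in male cells. Prdm1 was lower in Gzmk CD8 cells (0.507), Havcr2 CD8 cells (0.424), cycling CD8 cells (0.479), conventional CD4 cells (0.471), Tregs (0.645), Ly49 NK cells (0.532) and innate-like cells (0.340). Eomes was higher in Tregs (6.58, from 22 STK and 4 DMSO UMIs, the STK UMIs with a sex call all being from female and the DMSO ones all from male cells) and lower in Havcr2 CD8 cells (0.502).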

How the results depend on the processing

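The count of factor and gate pairs past 1.5-fold higher in the STK library was 10 to 18 over 11 alternatives (14 as reported), the count past 1.5-fold lower 12 to 19 (16), and the count of pairs with enough UMIs 69 to 100 (93), within 1.5 times in each case. Of the single ratios STK over DMSO, 690 stayed inside the counting interval of the reported value, 93 moved out of it and 5 reversed. Within female cells only 17 stayed, while 48 moved and 3 reversed. Within male cells 39 stayed, 34 moved and 2 reversed. Most of the 690 thus came from alternatives that kept both sexes together. The 5 were within 1 sex: in female cells Id3 in naive-like CD8 was 1.69 (0.452 as reported), Prdm1 in cycling CD8 1.01 (0.479) and Bhlhe40 in Tregs 0.776 (1.65), and in male cells Lef1 in NK-receptor T was 0.584 (1.52) and Prdm1 in Ly49 NK 1.62 (0.532). Between shares of cells with a UMI, thinning to 2000 in place of 1000 UMIs turned Tox in naive-like CD8 to 0.830 (1.56) and Eomes in cycling CD8 to 1.03 (0.562). The cause was not tested. Within 1 sex, or with gates of 2 UMIs, no factor was both counted and on the same side of 1 in every gate. Male Tbx21 was below 1 in all 9 counted gates. It was also below 1 in male Havcr2 CD8 cells (0.708), where 3 STK and 12 DMSO UMIs were too few to count. By the mean over cells Tbx21 was not below 1 in every gate. Between gates, 256 ratios stayed inside the interval and 8 moved. Bach2, Id3 and Prdm1, with fewest UMIs, are limited by depth. No paired analysis was possible because each group is 1 library.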

Other observations

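Several of these factors are not particular to T and NK cells in the sorted leukocytes. Bach2, which also restrains plasma cell differentiation, was higher in B and plasma cells than in any T or NK gate, at 131 CPM in the STK and 75.0 in the DMSO library (ratio 1.74, interval 1.23 to 2.49). Id3 was highest in monocytes, at 403 CPM in STK and 232 in DMSO cells, and macrophages, at 240 and 117 CPM. Id2, which dendritic cells need for their development, was 401 CPM in STK and 557 in DMSO conventional dendritic cells, and 330 and 319 CPM in macrophages.

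In the gamma-delta or IL-17 gate of 71 STK and 28 DMSO cells, Tcf7 was 170 CPM in the STK and 213 in the DMSO library, and Bhlhe40 605 and 243 CPM, from 174 and 24 UMIs. Tox and Eomes were close to absent outside T and NK cells: conventional dendritic cells, monocytes and macrophages held 0 to 5 UMIs of either gene in each library.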
